A study of Caenorhabditis elegans with 4 samples.

Results

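The nuclear genes of oxidative phosphorylation were examined for CES-1 binding in *Caenorhabditis elegans* larvae. The members are 67 of the 19973 nuclear protein-coding genes of the Ensembl WBcel235 annotation. They were picked by gene symbol and comprise subunits of the respiratory complexes and of ATP synthase, cytochrome c, assembly factors with a cox symbol, and the ADP/ATP carrier gene ant-1.1. Of these, 28 belong to complex I, 5 to complex II, 7 to complex III, 2 are cytochrome c genes, 7 encode subunits of complex IV and 8 its assembly factors, 9 belong to complex V, and ant-1.1 stands alone. The symbol rule does not take in subunits that still go by another name.

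Chromatin immunoprecipitation with sequencing was done on whole L4 larvae, both sexes pooled, of strain OP174. Its genotype in the labels is unc-119(ed3) with the insertion wgIs174, which holds ces-1 tagged with TY1, EGFP and FLAG and an unc-119 copy. All 4 biological replicates carry it, so there is 1 group and no untagged or untreated one. The labels name no ces-1 mutation and do not say what drives the transgene. Worms of replicates 1 and 2 came from the CGC strain collection and have a stated size range of 150 to 350, and replicates 3 and 4 came from the submitting laboratory and were sonicated with a microtip.

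Oxidative phosphorylation passes electrons from NADH (complex I) and succinate (complex II) through ubiquinone, complex III and cytochrome c to oxygen at complex IV. The proton gradient made on the way drives ATP synthase, complex V, and the ADP/ATP carrier exchanges the product with the cytosol. Most subunits are encoded in the nucleus and a few in mitochondrial DNA. CES-1 is a Snail-family zinc finger factor known from the survival of particular pharyngeal neurons.

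A member was counted in a list where the summit of a region lay in its promoter window. The window reached 1000 bp upstream and 200 bp downstream of each annotated 5′ end. Positions are given in bp relative to that end, negative upstream. The submitters deposited 30000 regions for each library and 25493 for all libraries pooled. These lists hold background as well as peaks, so a region in them alone is not called binding here. They also deposited 1033 peaks that passed the irreproducible discovery rate (IDR) step, here called IDR peaks. The signal of a region is the submitters' value on an unstated scale and is used within one list only. Read depth is unknown. Since the series has 1 group, counts of members are set beside the share of all nuclear protein-coding genes that had the same kind of region, and no gene list was tested.

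IDR peaks lay at 9 of the 67 genes (13.4%), against 2.61% of all nuclear protein-coding genes. They were the complex IV genes cox-5A, cox-5B and cox-6B, the complex I genes ndub-8, nuo-2 and ndua-1, the complex V genes atp-1 and atp-2, and cyc-1 of complex III. Complex II, cytochrome c, the complex IV assembly factors and ant-1.1 had none. Each of the 9 genes had a separate peak, all of the same deposited width, 344 bp. By signal they ran from 83rd (cox-5A) to 913th (ndua-1) of the 1007 nuclear IDR peaks, with a median signal of 63.6 for the 9 peaks and 58.5 for all nuclear ones.

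Sequence within 50 bp of the summit is given for 5 of the 8 peaks that a region of every library overlaps, to show what lies under them; the windows of cox-5B, cyc-1 and nuo-2 are not printed. Capitals mark E-boxes, the CANNTG hexamers read by basic helix-loop-helix proteins and, in the form CAGGTG, by Snail-family proteins. Sequences are WBcel235, read 5′ to 3′ on the strand of the gene.
cox-5A, chrIII:12905152-12905252, forward strand: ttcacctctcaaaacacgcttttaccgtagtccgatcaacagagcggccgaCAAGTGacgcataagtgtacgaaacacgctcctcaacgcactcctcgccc
cox-6B, chrIII:2786010-2786110, forward strand: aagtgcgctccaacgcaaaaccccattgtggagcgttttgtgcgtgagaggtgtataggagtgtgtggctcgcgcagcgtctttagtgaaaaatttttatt
ndub-8, chrII:13872641-13872741, forward strand: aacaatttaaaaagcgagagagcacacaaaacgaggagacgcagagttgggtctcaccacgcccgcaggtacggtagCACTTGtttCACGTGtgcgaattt
atp-2, chrIII:5228128-5228228, forward strand: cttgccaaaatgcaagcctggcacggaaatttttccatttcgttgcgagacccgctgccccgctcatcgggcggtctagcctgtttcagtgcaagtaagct
ndua-1, chrV:20852146-20852246, reverse strand: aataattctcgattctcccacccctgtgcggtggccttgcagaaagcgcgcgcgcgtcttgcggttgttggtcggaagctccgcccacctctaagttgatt

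None of the printed windows overlaps an annotated coding exon or UTR. Since the 9 peaks were taken from promoter windows, they are set beside the 405 nuclear IDR peaks in the promoter window of any protein-coding gene. CAAGTG, which reads CACTTG on the other strand, lay in 3 of the 9 summit windows (cox-5A, ndub-8 and atp-1), against 42 of the 405 promoter peaks (10.4%). CACGTG lay at ndub-8 alone of the 9, against 2.22% of promoter peaks, and CACATG at nuo-2 alone, against 5.68%. CAGGTG, searched on both strands, was in 0 of 9 windows and in 4 of the 405 (0.988%). With any of the 10 distinct E-boxes counted, 4 of 9 windows had one, against 35.8% of promoter peaks. With 9 windows a share moves by a large step with each peak, and these letters are a description of the windows only.

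The summits of the 9 genes were rich in G and C. Within 50 bp of the summit G + C made up a median of 53.5%, from 40.6% at nuo-2 to 57.4% at ndua-1, against a median of 42.6% over the 405 promoter peaks and 41.6% over all nuclear IDR peaks. At 8 of the 9 the value was above both medians, and 13.8% of promoter peaks reached the 9 genes' own median. The 300 bp before the outermost 5′ end were not as rich, with a median of 35.7% for the 9 genes, against 35.2% for all 522 nuclear protein-coding genes with an IDR peak. It was 32.2% for the 58 other members and 33.3% for all nuclear protein-coding genes. Among the 37 members that had a pooled region without an IDR peak, the strongest region had a median of 36.6%, against 33.7% over all nuclear pooled regions. Whether base composition affected recovery of these regions was not tested.

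**Figure D1:**
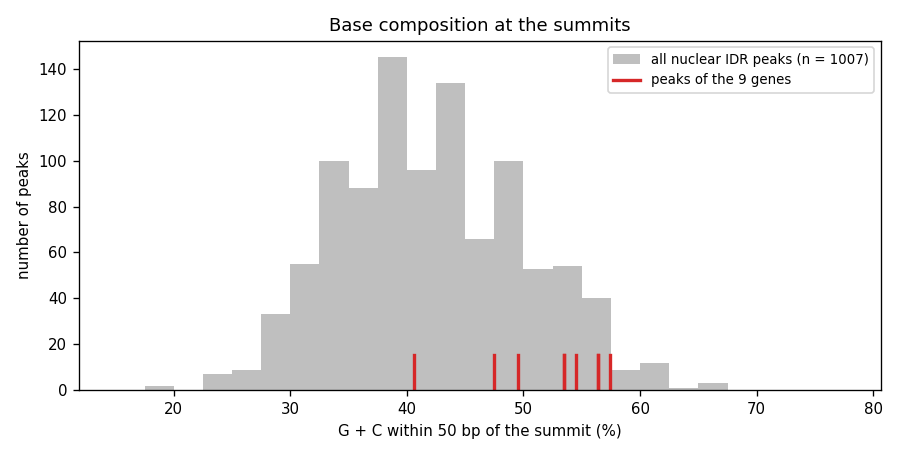
G + C share within 50 bp of the summit (%) against the number of peaks. Grey bars are the 1007 nuclear IDR peaks and red marks the peaks of the 9 genes, which run from 40.6% to 57.4%; 8 of them lie above the nuclear median of 41.6%.

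Complex IV, cytochrome c oxidase, is the last enzyme of the chain and reduces oxygen to water. Its nuclear subunits had the largest share of IDR peaks among the complexes with more than 1 member, 3 of 7 (42.9%, against 2.61% of all genes). The 3 include cox-6B, whose peak lay nearer the 5′ end of Y71H2AM.20. With so few peaks the order of the complexes can turn on a single peak, and it was not tested. All 7 subunit genes had a region in the pooled list, against 36.7% of all genes, and 4 had one in each of the 4 libraries (57.1%, against 10.3%). Between 3 and 4 were among the 2000 strongest regions of each library, a mean share of 50% ± 8.25 (SD, n = 4), against 4.57% ± 0.767 for all genes.

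The cox-5A gene (WBGene00012553, chromosome III from 12905491 to 12906619, forward strand), the gene of a structural subunit, had the strongest peak of all members. The peak lay between genes, from 12905030 to 12905373, with its summit at -289 bp and a pooled signal of 112.5. No other gene's promoter window held it. Among the 30000 regions of a library it ranked 208, 93, 195 and 296 in replicates 1 to 4 and had a mean rank percentile of 99.3 ± 0.277 (SD, n = 4). All libraries placed it near the top of their lists.

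At cox-6B (WBGene00022170), which encodes a subunit that faces the intermembrane space in mammals, the peak was found on chromosome III between 2785888 and 2786231, with a pooled signal of 80.4. It ranked 637, 215, 231 and 625 in replicates 1 to 4. The summit was in an intron of the longest cox-6B model, at -142 bp from an inner 5′ end, and 112 bp upstream of that of Y71H2AM.20, which is the nearest coding gene. The window of nduc-2 held it too, at -792 bp. Which of these genes the peak belongs to cannot be told from these lists.

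At cox-5B (WBGene00000371), a subunit gene, the peak lay on chromosome I from 9788567 to 9788910, with a pooled signal of 66.5 and its summit in the 5′ UTR, 14 bp downstream of a 5′ end. The region there ranked 339, 435 and 1483 in replicates 1 to 3, but 10241 in replicate 4. In replicate 4 the strongest region of the window was another one, at rank 916 and -776 bp.

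The other subunits had weaker regions. The strongest pooled region of cox-6A had a signal of 35.1 and lay at -850 bp. Its strongest regions ranked 17844, 21996, 2291 and 1568 in replicates 1 to 4, with summits between -985 and -663 bp. The cox-4 region (pooled signal 23.9) was listed in replicates 2 and 4, and that of cox-6C (28.9) in replicates 2 and 3. cox-7C had a region in the pooled list only (13.0).

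The assembly factors of complex IV make heme A, deliver copper or stabilise the nascent core. Their shares with an IDR peak or a pooled region were below those of all genes, but 8 genes are too few to read a difference from this. None of 8 had an IDR peak, where 2.61% of all genes had one, so that with 8 genes a count of 0 says little. A pooled region lay at 2 of 8, cox-10 and cox-11 (25%, against 36.7%). At cox-11, cox-15, cox-17, cox-18 and cox-19 a gene on the same strand ended 119, 100, 103, 111 and 96 bp before the outermost 5′ end. Their windows therefore reach over that gene. In the single libraries, 7 of the 8 had a region in exactly 1 library, cox-11 had one in 2, and none in more. The share of all genes with a region in exactly 1 library is not given here. Genes without a region in any library numbered 0 of 8, against 22% of all genes. Among the 2000 strongest regions of replicate 2 were 2 of the 8 (25%, against 5.47%), and 0 in the other libraries. cox-10, the heme A farnesyltransferase gene, ranked 436 in replicate 2 and had no region in replicates 1, 3 and 4. cox-14 ranked 1239 in replicate 2, and it too had no region in the other three.

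**Figure D2:**
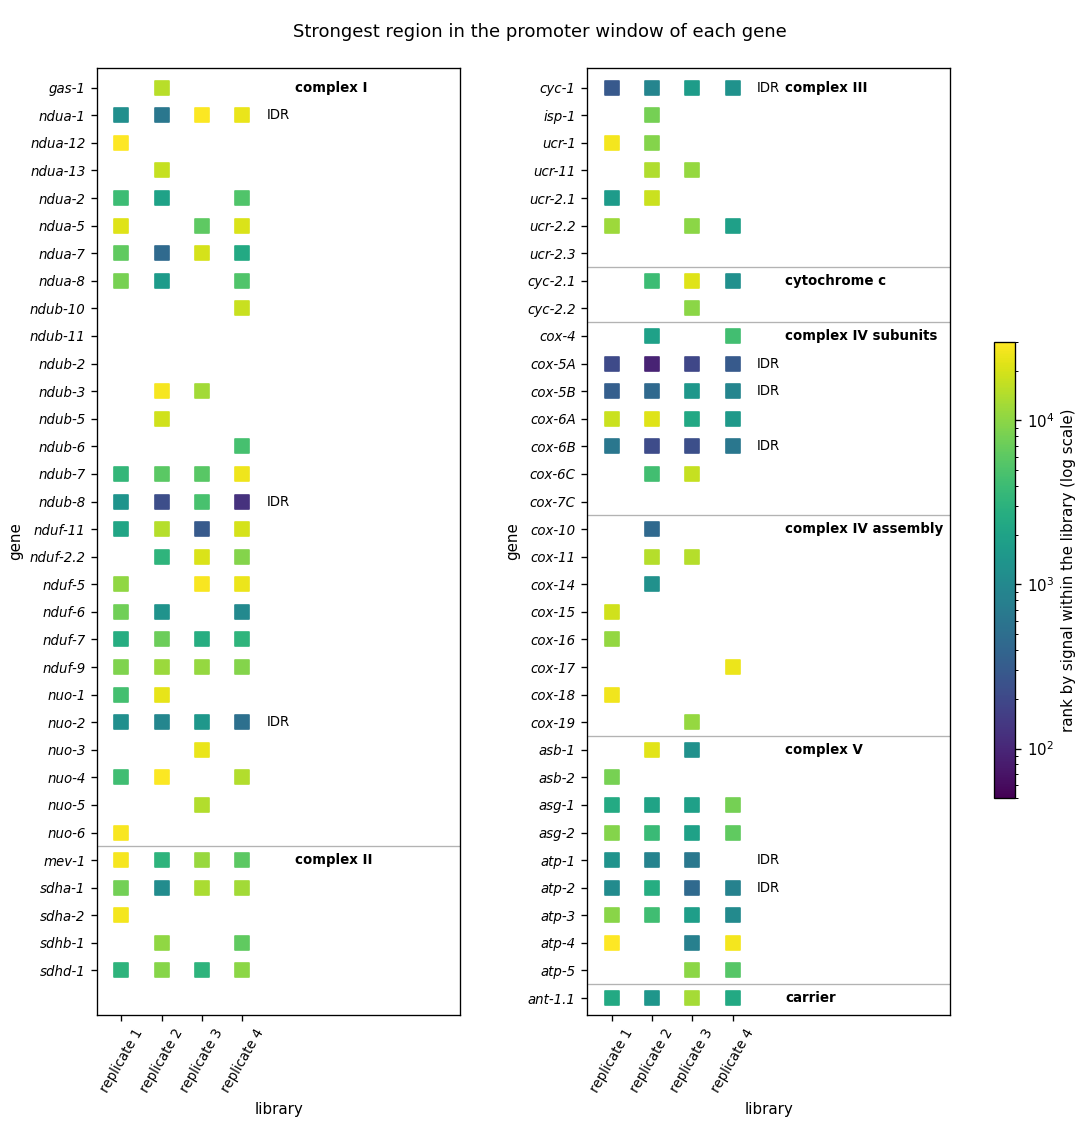
Rank by signal (colour, log scale; dark is strong) of the strongest region in the promoter window of each of the 67 genes in each of the 4 libraries, by complex. An empty place means that no region was listed, and IDR marks the 9 genes with an IDR peak. The rows of cox-5A, cox-5B, cox-6B, cyc-1 and nuo-2 are dark in all 4 libraries, while most assembly factors have a single mark. For cox-5B the mark of replicate 4 is a region other than the IDR peak.

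Complex I, the NADH dehydrogenase, has the most members. IDR peaks lay at 3 of 28 genes (10.7%, against 2.61% of all genes). A pooled region lay at 20 (71.4%, against 36.7%) and a region in all 4 libraries at 8 (28.6%, against 10.3%). The peak of ndub-8, a subunit of the membrane arm, lay on chromosome II from 13872519 to 13872862, at -178 bp, with a pooled signal of 72.8. It ranked 1387, 228, 4716 and 123 in replicates 1 to 4, so replicates 1, 2 and 4 held it among their 2000 strongest and replicate 3 did not. Its summit was also in the window of cup-14, at -450 bp. Relative to the IDR summit, those of replicates 3 and 4 were offset by -104 and -73 bp, away from the gene.

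The nuo-2 gene encodes the 30 kDa-type core subunit of the peripheral arm, NDUFS3 in mammals. Its peak, on chromosome I from 6531910 to 6532253, ranked 1183, 935, 1464 and 516 in replicates 1 to 4, within the 2000 strongest of each. The summit was at -119 bp, in the annotated 3′ UTR of T10E9.14, a gene on the same strand that ends 20 bp before the nuo-2 5′ end. Its summits were spread over 195 bp between libraries, the widest of the 9 after ndua-1.

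The third complex I peak, at ndua-1 (a small membrane-arm subunit), rested on 2 libraries. It lay on chromosome V from 20852024 to 20852367 with a pooled signal of 45.6, close to 44.2, the lowest of the IDR list. The region ranked 1170 in replicate 1 and 625 in replicate 2, but 29040 in replicate 3. In replicate 4 the overlapping region ranked 23997, shared 40 bp with the peak and had its summit 317 bp away. At this peak the 2 libraries with the stated size range were thus high and the 2 sonicated with a microtip were low. This split was not a planned comparison. Strain source, fragmentation and variation between single libraries cannot be told apart here.

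Among complex I genes without an IDR peak, ndua-8 and nduf-6 had the strongest pooled regions (37.2 and 36.7), both with no region in replicate 3. Next was nduf-7 (36.1), with a region in every library, at ranks 2600, 7046, 2705 and 3211 in replicates 1 to 4. Not all libraries had a region overlapping its pooled region. nduf-11 ranked 297 in replicate 3 and 2162, 14792 and 19671 in replicates 1, 2 and 4. ndua-7 ranked 444 in replicate 2 and 6304, 19883 and 2396 in replicates 1, 3 and 4. Its replicate 3 region of that rank lay at -958 bp and the pooled region at -354 bp. The pair of genes for the 49 kDa-type core subunit, gas-1 and nduf-2.2, had weak regions or none: gas-1 had one in replicate 2 at rank 15051, and nduf-2.2 had one in replicates 2, 3 and 4 at ranks 3184, 20744 and 9132. nuo-1, which encodes the NADH-binding core subunit, had a region in replicates 1 and 2 at ranks 4422 and 23815. No library listed a region at ndub-2 or ndub-11.

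Complex V, ATP synthase, had IDR peaks at the genes of the catalytic head, atp-1 for the alpha subunit and atp-2 for the beta subunit, which are 2 of 9 genes (22.2%, against 2.61% of all genes). A pooled region lay at 7 of the 9 (77.8%, against 36.7%). The atp-2 peak lay on chromosome III from 5228006 to 5228349 with a pooled signal of 49.2, at -239 bp, and also in the windows of C34E10.10 and C34E10.12. It ranked 1061, 2632, 442 and 859 in replicates 1 to 4. The atp-1 peak lay on chromosome I from 12652086 to 12652429 with a pooled signal of 48.4 and its summit at -19 bp. It ranked 1344, 873 and 642 in replicates 1 to 3, and replicate 4 listed no region there. Its window was shared with mcrs-1, at -171 bp, and a piRNA gene. Of the 9 peaks, this was the 1 that a library did not overlap.

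Replicate 3 differed from the other libraries at complex V. It had 7 of 9 genes among its 2000 strongest regions (77.8%, against 3.73% of all genes in that library), while replicates 1, 2 and 4 had 2, 1 and 2. In replicate 3 these were atp-2, atp-1, atp-4 (rank 798), asb-1 (1227), atp-3 (1776), asg-1 (1831) and asg-2 (1933), of which the last 3 were near the limit of 2000. atp-4, the gene of a stalk subunit, ranked 29756 in replicate 1 and 26697 in replicate 4 and had no region in replicate 2. Just below the IDR list by pooled signal were atp-3, the gene of the oligomycin sensitivity subunit (39.3), and asg-1, a subunit g gene (38.7). Both had a region in all 4 libraries, but at asg-1 that of replicate 1, at 87 bp, did not overlap the pooled region, at -351 bp. Of the subunit b pair, asb-1, known for a germline role, ranked 22439 in replicate 2 and 1227 in replicate 3, while asb-2 ranked 8059 in replicate 1 and had none elsewhere.

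Complex III passes electrons from ubiquinol to cytochrome c. Its 1 peak of 7 genes (14.3%, against 2.61% of all genes) was at cyc-1, the gene of cytochrome c1, on chromosome I from 8024558 to 8024901 with a pooled signal of 63.6. With 7 genes, 1 peak says little about the complex as a set. The cyc-1 peak lay between genes, at -308 bp and in no other gene's window. It ranked 289, 911, 1690 and 1270 in replicates 1 to 4, inside the 2000 strongest of each. The other members had weaker regions: ucr-2.1 had a pooled signal of 20.5, isp-1, the Rieske iron-sulfur protein gene, 15.1 and ucr-11 10.6. isp-1 was listed in replicate 2 alone, at rank 7834. Of the 3 core protein genes ucr-2.1, ucr-2.2 and ucr-2.3, the first had regions in replicates 1 and 2 (ranks 1650 and 17784), the second in replicates 1, 3 and 4 (ranks 11657, 9847 and 1836), and the third in none.

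Complex II, succinate dehydrogenase, is the link to the citric acid cycle. None of its 5 genes had an IDR peak, and at 2.61% of all genes a count of 0 of 5 is no result about them. A pooled region lay at 4 (80%, against 36.7%) and a region in every library at 3 (60%, against 10.3%). The strongest was at sdha-1, the flavoprotein gene (pooled signal 31.8), at ranks 7770, 1086, 13322 and 12361 in replicates 1 to 4. sdhd-1 (29.0) ranked 3134, 9409, 3089 and 9858, and mev-1 (21.5), a membrane anchor gene, 27578, 3148, 11121 and 5991. The replicate 3 region of mev-1 lay at -764 bp, away from the pooled region at -67 bp. sdhb-1, the iron-sulfur subunit gene (17.8), was listed in replicates 2 and 4 only. The second flavoprotein gene, sdha-2, had a region in replicate 1 alone, at rank 26736.

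Cytochrome c and the carrier had no IDR peak. cyc-2.1 had a pooled signal of 14.7 and ranked 3994, 21774 and 1224 in replicates 2, 3 and 4. Its paralogue cyc-2.2 was listed in replicate 3 alone, at rank 9947. ant-1.1 had a region in every library, at ranks 2394, 1458, 12663 and 2357 in replicates 1 to 4, and a pooled signal of 31.3.

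**Figure D3:**
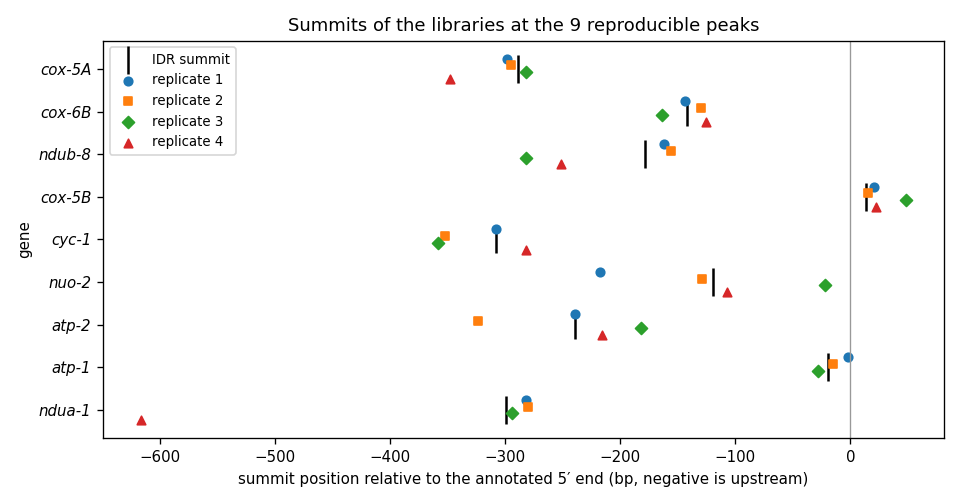
Position of the summit relative to the annotated 5′ end (bp, negative is upstream) at the 9 genes with an IDR peak. The black bar is the IDR summit and each symbol a library. At cox-5A, cox-6B, cox-5B and atp-1 the library summits of a gene lie within 66 bp of each other (3 libraries at atp-1). The summit of the ndua-1 region of replicate 4 lies 317 bp from the IDR summit.

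The promoter window limits where the 9 summits can lie, and within it they lay between -308 and 14 bp. Of the 9, 6 fell between genes (66.7%, against 65.7% of the 405 promoter peaks), 1 in an intron, 1 in a 5′ UTR, 1 in a 3′ UTR and none in a coding exon. Chromosome I, with 19 members, held 4 of the 9, and chromosome III, with 15, held 3. Chromosomes II and V, with 11 and 6 members, held 1 each. None of the 6 members on X and none of the 10 on chromosome IV had one. X holds 258 of the nuclear IDR peaks and chromosome IV 143. At 2.61% of all genes, counts of 0 of 6 and 0 of 10 say little. A region of every library overlapped 8 of the 9 peaks (88.9%, against 81.5% of promoter peaks). In 4 of the 9, at cox-5A, cox-6B, cyc-1 and nuo-2, that region was among the 2000 strongest in all 4 libraries (44.4%, against 24.4% of promoter peaks).

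Across the whole set, weaker regions were common too. A pooled region lay at 46 of 67 genes (68.7%), against 36.7% of all nuclear protein-coding genes. In the single libraries a region was present at 40, 44, 38 and 37 genes in replicates 1 to 4, against 41.4%, 41.6%, 39.3% and 40.2% of all genes. As shares of the 67 these are 59.7%, 65.7%, 56.7% and 55.2%. A region in all 4 libraries was found at 21 genes (31.3%, against 10.3%), and 17 of the 21 had regions overlapping the same pooled region. Regions were listed in 3 libraries at 11 genes, in 2 at 11 and in 1 at 20. For these counts and for the 17 of 21, the shares over all genes are not given here. No library listed a region at 4 genes, ndub-2, ndub-11, ucr-2.3 and cox-7C (5.97%, against 22% of all genes). Taking a gene without a pooled region as 0, the median pooled signal was 15.6 over the 67 genes and 0.0 over all genes. Members have a mean of 1.24 annotated 5′ ends, each with a window, and all nuclear protein-coding genes 1.49. The closeness of members to neighbouring genes was not compared with that of all genes.

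The strongest regions of each library were also counted. The 2000 strongest lay at 10, 17, 13 and 12 of the 67 genes in replicates 1 to 4, a mean of 13 ± 2.94 (SD, n = 4). These are 14.9%, 25.4%, 19.4% and 17.9% of members, against 4.9%, 5.47%, 3.73% and 4.2% of all genes. The members' share was above that of all genes in 4 of 4 libraries. In at least 2 libraries it was so at 11 members (16.4%, against 4.27%), and in all 4 at 5 members (7.46%, against 0.671%). The 5 are cox-5A, cox-5B, cox-6B, cyc-1 and nuo-2, and for cox-5B the region of replicate 4 is not the IDR peak. Each pair of libraries had between 6 and 8 of these members in common. Replicates 1 and 2 had 8 in common, which is 80% of those of replicate 1 and 47.1% of those of replicate 2. Replicates 2 and 3 had 6, or 35.3% and 46.2% of theirs. The same overlaps over all genes are not given here, so agreement particular to members cannot be read from these. Whether strongly transcribed promoters are recovered without binding was not tested, since no control library was analysed here.

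**Figure D4:**
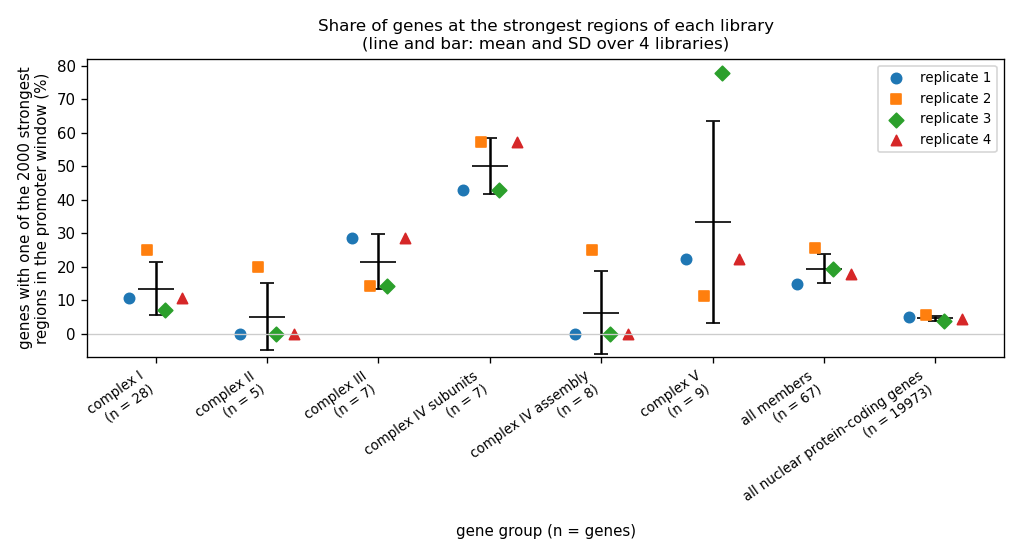
Share of genes (%) with one of the 2000 strongest regions of a library in the promoter window, for each complex (cytochrome c and the carrier are not drawn), for all 67 members and for all 19973 nuclear protein-coding genes. Symbols are libraries, and the line and bar are the mean and SD over 4 libraries. Complex IV subunits lie between 42.9% and 57.1% in every library, while complex V is at 77.8% in replicate 3 and at 22.2% or less in the others.

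Other genes of mitochondrial energy metabolism were counted in the same way. Of 20 genes of the citric acid cycle and pyruvate dehydrogenase, 1 had a peak (5%, against 2.61% of all genes): dld-1, the gene of the dihydrolipoamide dehydrogenase shared by several oxoacid dehydrogenases, with a pooled signal of 98.0 at -260 bp. It ranked 176, 88, 7195 and 2832 in replicates 1 to 4. Of 30 genes of assembly, ubiquinone synthesis, other carriers, mitochondrial DNA upkeep and stress response, 2 had a peak (6.67%, against the same 2.61%). They were sco-1, a copper chaperone gene of complex IV (55.3), and hsp-60, the mitochondrial chaperonin gene (92.8), whose peak lay nearer the 5′ end of Y22D7AL.10. Peak counts of 1 of 20 and 2 of 30 say little about these lists. With the 2000 strongest regions, the first list had 1.75 ± 0.957 genes and the second 4 ± 2 (SD, n = 4 each), which are 8.75% and 13.3% of their genes, against 4.57% of all genes. Both lists thus also had shares above that of all genes. The oxidative phosphorylation genes, at 19.4%, had a higher mean share than either; the differences were not tested. The mitochondrial chromosome, 13794 bp long, has 12 protein-coding genes that supply the other subunits. It held 26 IDR peaks with a median signal of 330.6, against 58.5 for nuclear ones. Its genes are outside the set, and whether these peaks reflect CES-1 binding was not tested.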

How the data were processed

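Peak lists of 4 ChIP-seq libraries (1 group, replicates as numbered in the labels) are narrowPeak files (10 columns, ce11). Per the deposited file records, each library's list and the pooled list hold peaks and background made against 1 control, and the IDR list was derived from them. Aligner, caller and IDR cutoff: not given in the sources used here. The signal of a region is the value the authors deposited, of unstated scale, and was ranked within a list only. Read counts are unknown, so no counting interval was computed. ce10 copies were not used, and 0 columns were left out.

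Genes came from Ensembl release 115, sequence from RefSeq, both WBcel235; the last region of each chromosome lay within its length. A summit (start plus column 10) was assigned to every gene whose window held it. Overlap meant at least 1 bp. The set of promoter IDR peaks used for comparison was added after the data were seen. E-box searches covered 50 bp to either side of a summit and both strands. Named genes were all members with an IDR peak, up to 4 members per complex by pooled signal, members with no region, and genes of the other lists with an IDR peak; other members were named as paralogues or after their values were seen. The members and lists were chosen with earlier results of these data known. Window assignment was tested on simulated data. Replicates are separate samples by the labels. Python 3.11.15, numpy 2.4.6, pandas 2.3.3, biopython 1.88 and matplotlib 3.10.9 were used.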

Additional observations from a re-analysis of the deposited data

Results flagged for a closer look

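In 27 sets of 4 library values with a range above 1, the library farthest from the others was compared with Dixon's critical value. In all, 4 sets passed. For normally distributed values chance flags about 1 set in 20. These sets are small counts, ranks and positions, for which that rate need not hold. Replicate 3 stood apart at complex V, with 7 genes among its 2000 strongest regions. Replicate 2 had 2 of the complex IV assembly genes there (cox-10 and cox-14), where the other libraries had 0; with 3 tied values the ratio is 1 whatever the fourth is, so this is a value only and the chance rate does not apply to it. Replicate 4 stood apart at cox-5B, where the region at the IDR peak ranked 10241, and at ndua-1, where its summit lay 317 bp from the IDR summit. What sets these libraries apart was not tested.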

How the results depend on the processing

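The count of 9 genes with an IDR peak was 9 with a window from 500 bp upstream to 100 bp downstream and 8 when a peak counted for the nearest coding gene only (cox-6B was lost). It was 8 with peaks overlapped in all 4 libraries (atp-1 was lost) and 5 with the peaks below the median signal of the IDR list left out, among them atp-1, atp-2, ndua-1 and nuo-2. With the narrower window, 38 genes had a pooled region and 15 a region in all 4 libraries. Leaving out 1 library, the genes with a region in all others numbered 23 to 25 without replicates 1 to 3 and 22 without replicate 4; the mean among the 2000 strongest ran from 11.7 to 14, and the IDR peaks found in all others from 8 to 9. With the 1000 strongest regions the mean was 6.5 and with the 5000 strongest 19.5, as the number of regions sets it. With 50% overlap required, 7 of the 9 IDR peaks were found in all 4 libraries. For genes among the 2000 strongest in all libraries, an alternative added after seeing the data gave 4 where the region had to be the IDR peak and 5 to 6 without 1 library. The IDR list itself cannot be remade without a library. No paired analysis was possible because there is 1 group. The unknown read depth limits what the absence of a region shows.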
